A study of Drosophila melanogaster with 6 samples.

Results

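CheA and CheB proteins are 2 families of small secreted proteins that were found through their expression in chemosensory organs of *Drosophila melanogaster*. The genes set out for description were 9 family members, 7 of the CheA and 2 of the CheB family, and a member counted as measured where a probe set of the array was annotated with its symbol and no other. By that rule 5 members had a probe set each, out of 11982 genes with such a probe set on the array: CheA29a, CheA46a, CheA75a, CheA84a and CheA87a. All 5 are CheA genes. CheA56a, CheA86a, CheB38a and CheB42a had no such probe set and were not analysed here, so for the 9 genes the data speak on the CheA side only. In adult male heads 1 member, CheA87a, gave a signal above background on every array, and its signal was lower in value in single-housed than in group-housed males, a difference that did not pass the test over all probe sets.

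Insects read part of their social world through contact pheromones, hydrocarbons of the cuticle that are tasted by hairs on the legs and the mouthparts, and through volatile pheromones that are smelled with the antennae. CheA and CheB genes were first described from taste hairs of the male front leg, where CheA29a and CheB42a are expressed. CheB proteins resemble the GM2 activator protein of mammals, which binds lipids, and CheB42a is known to act in the response of males to female pheromones. The receptors and channels on the other side of contact pheromone sensing include the ion channel subunits ppk23, ppk25 and ppk29 and the gustatory receptors Gr32a and Gr33a.

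RNA was taken from whole heads of male *D. melanogaster* after 6 days of adult life with or without company. Single-housed males lived with 1 fly per vial from eclosion, and group-housed males with 10 flies per vial. Each sample pooled 20 heads, frozen in the late afternoon, and 3 single-housed and 3 group-housed pools, described in the labels as biological replicates, were each read on an Affymetrix expression array. The series calls the males kept alone the more aggressive ones. The labels used here name no strain. A head sample carries the eyes, brain, antennae, mouthparts and head fat body together, and holds no legs by its label. In such whole-head RNA, fewer cells of a type and less RNA per cell cannot be told apart.

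Signals are the deposited intensities, on a linear scale, or log2(intensity + 16) after quantile normalization. All differences are single-housed minus group-housed on that log2 scale, which understates differences of dim probe sets. The deposited files hold no detection call. Background was therefore read from 24 probe sets for genes of the eggshell and of the larval salivary glue, which adult male heads are not known to use, and a probe set was counted as above background on an array when it exceeded the 95th percentile of these. As deposited, that level lay between 15.6 and 23.7 on the single-housed arrays and between 15.2 and 24.8 on the group-housed arrays. Of all 18769 probe sets 49.7% passed it on all 6 arrays. The head markers with a probe set, 3 of 8 listed, were above it on every array, with the neuronal genes elav and nSyb and the photoreceptor channel gene trp at differences of -0.17, -0.04 and -0.01. Of the markers of other tissues, 0 of 10 testis probe sets, 1 of 9 male accessory gland probe sets (Acp95EF) and 1 of 3 probe sets for the thoracic Hox gene Antp passed on all arrays.

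CheA87a (probe set 1636657_at) had intensities of 351.0, 251.1 and 365.4 in single-housed heads, against 505.9, 577.1 and 399.1 in group-housed heads. All 3 single-housed values lay below all 3 group-housed values, and every one of the 6 lay far above the background level of its array. Single-housed heads averaged 323 ± 62.2 and group-housed heads 494 ± 89.6 (deposited intensity, SD, n = 3). Normalized log2 signals were 8.33, 7.95 and 8.68 in single-housed heads and 9.05, 9.42 and 8.70 in group-housed heads. The difference was -0.74 (SE 0.21), a signal 1.67-fold higher in group-housed heads with a 95% interval of 1.19 to 2.33. In the limma fit over all 13138 probe sets tested this gave an adjusted p of 0.454, so CheA87a did not pass the threshold of 0.05 (unadjusted p 0.00729). The family was selected on its gene symbols, but with this housing difference of CheA87a already known from the same arrays, so the values describe these arrays and are no independent support.

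**Figure D1:**
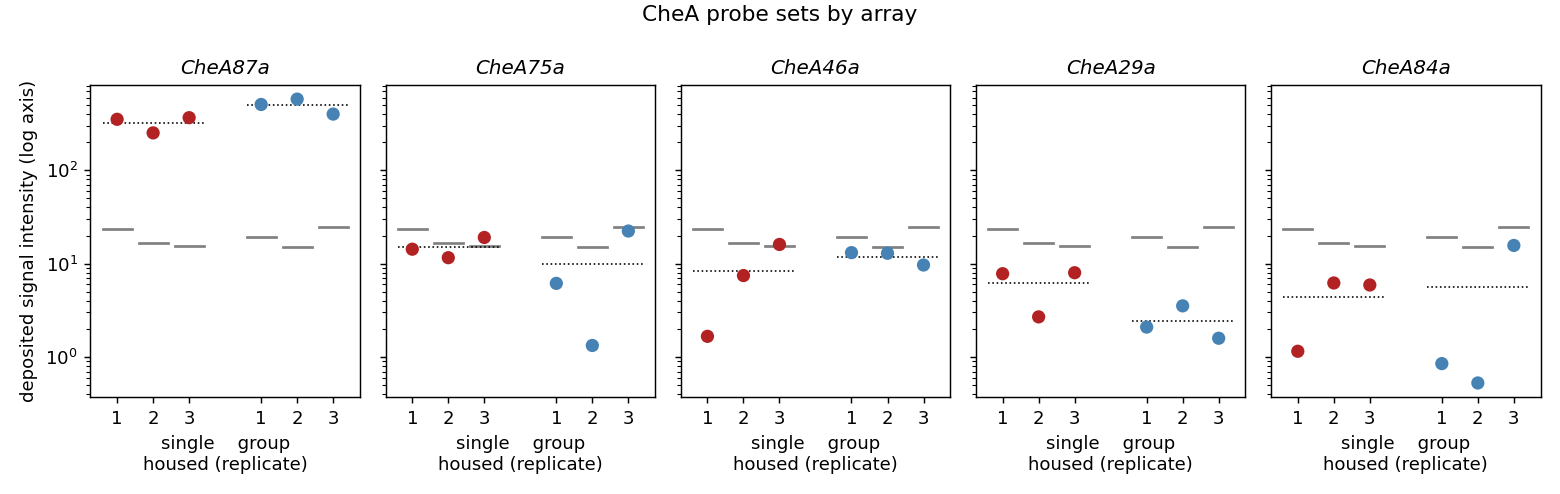
Deposited signal intensity (log axis) of the 5 measured CheA probe sets on each array, single-housed arrays in red on the left and group-housed arrays in blue on the right; grey bars mark the background level of each array and dotted lines the group means. CheA87a lies between 251.1 and 577.1 on all 6 arrays, while the other 4 lie at or below 22.3 and mostly under the grey bars.

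The separation of the CheA87a groups was narrow. The highest single-housed array, replicate 3, and the lowest group-housed array, also replicate 3, were 0.03 apart on the normalized log2 scale, against a range of 0.73 within single-housed and 0.72 within group-housed heads. With the deposited scaling the gap was 0.12 and with median centring 0.090. The pooled SD of CheA87a, 0.36, was also large for so bright a probe set: among the 2387 probe sets with a mean signal at least as high, the median was 0.11 and 2.43% had an SD as large. By size the difference was among the larger ones, with 25 of the 13138 probe sets (0.190%) at a difference as low, CheA87a included, and 5 of the 2387 at least as bright. By p it ranked 211.

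Leaving out 1 array at a time kept CheA87a below 0, with differences from -0.92 to -0.55. The values nearest to 0 were -0.55, with the lowest array (single-housed replicate 2) left out, and -0.56, with the highest array (group-housed replicate 2) left out. With replicate 3 of either group left out, the arrays on either side of the narrow gap, the difference was -0.92 in each case. The groups did not overlap under either other scaling or either other pseudocount, the 4 alternatives that could have brought the 6 values to overlap. In each of the 14 alternatives set out for the fit the adjusted p was above the threshold, from 0.201 to 0.969.

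**Figure D2:**
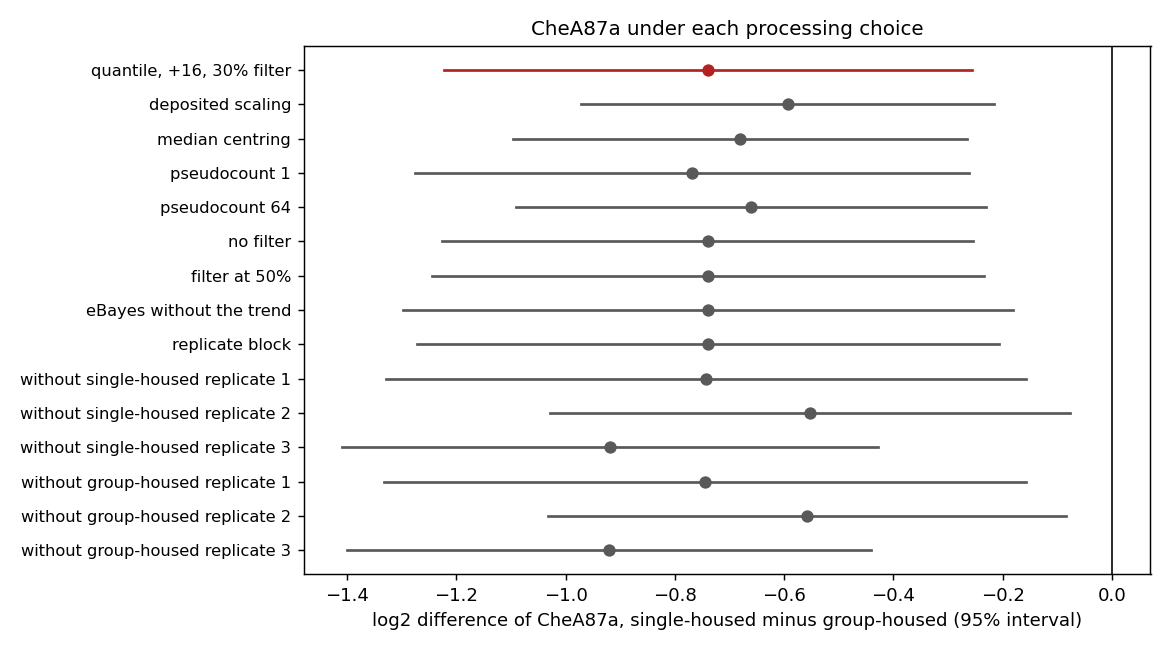
Difference of CheA87a between single-housed and group-housed heads (log2, points, with 95% limma intervals as lines) under the processing used in the text (red, at the top) and 14 alternatives (grey). All points lie between -0.92 and -0.55, and the intervals, which are not adjusted for the number of probe sets tested, end below 0.

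The other 4 measured members sat at or near the dim end of the arrays. CheA75a (1624808_at) had intensities of 14.3, 11.6 and 19.1 in single-housed heads, against 6.15, 1.33 and 22.3 in group-housed heads. The groups overlapped, since the highest and the lowest of the 6 values were both group-housed, and 1 of the 6 arrays, single-housed replicate 3, exceeded its background level. The difference was 0.31 (SE 0.26, 95% interval -0.27 to 0.90, limma adjusted p 0.788). Leaving out group-housed replicate 3 gave 0.58, and leaving out group-housed replicate 2 gave 0.087.

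CheA46a (1630464_at) had intensities of 1.67, 7.46 and 16.1 in single-housed heads, against 13.1, 12.9 and 9.67 in group-housed heads. Here too the groups overlapped, and single-housed replicate 3 was the 1 array above background. The difference was -0.28 (SE 0.24, 95% interval -0.82 to 0.27, limma adjusted p 0.796), or -0.07 without single-housed replicate 1. Both CheA75a and CheA46a passed the filter on low values narrowly: the cutoff was a mean of 4.69 over the arrays, and the normalized signal of CheA75a was 4.92 ± 0.11 for single-housed against 4.61 ± 0.51 for group-housed arrays (SD, n = 3). That of CheA46a was 4.55 ± 0.38 for single-housed against 4.83 ± 0.24 for group-housed arrays (SD, n = 3). Each was kept by the group in which its mean was higher.

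CheA29a (1633193_at), known from male front leg taste hairs, had intensities of 7.804, 2.69 and 7.997 in single-housed heads, against 2.09, 3.53 and 1.59 in group-housed heads. No array exceeded the background level, and the lowest single-housed value lay within the group-housed range. CheA84a (1637374_at) had 1.15, 6.21 and 5.91 in single-housed heads, against 0.851, 0.528 and 15.7 in group-housed heads, again with no array above background and with overlapping groups. Both were removed by the filter on low values. In the fit without that filter their differences were 0.20 (95% interval -0.13 to 0.53) and -0.01 (95% interval -0.54 to 0.52), with limma adjusted p of 0.804 and 0.998. For these 4 genes a change in the head was not detectable at this signal, which does not show that there was none.

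Of the 5 members, 3 were tested after the filter and 0 passed adjusted p 0.05 (1 at unadjusted p 0.05, CheA87a), where 0.0152% of all probe sets tested passed and 8.24% reached unadjusted p 0.05. Without the filter, 0 of the 5 passed against 0.00533% of all 18769. CheA87a was the 1 member whose groups did not overlap. Of all probe sets tested 7.95% did not overlap with single-housed lower, and 14.2% in either direction. Without the filter 12.8% of all 18769 did not overlap in either direction. The differences of the 5 ranged from -0.74 to 0.31 with a median of -0.01, beside -0.01 over all 18769 probe sets and -0.02 over those tested. The signs were mixed, with 3 members below 0 and 2 above. The median turned to 0.34 with a pseudocount of 1, to 0.10 with single-housed replicate 1 left out and to 0.13 with group-housed replicate 3 left out, each time with 2 members below 0.

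The array carries 7 further probe sets named for a CheA or CheB gene, which are not among the 9 members and were taken in by their symbols after the files had been seen. They are CheA7a, CheB38c, CheB42b, CheB53b, CheB93a, CheB93b and CheB98a. None was above background on all 6 arrays. CheB42b came nearest, with 31.6, 13.4 and 23.0 in single-housed heads against 24.0, 22.3 and 34.3 in group-housed heads, over background on 2 single-housed and 3 group-housed arrays. CheB38c passed it on 2 single-housed arrays and 1 group-housed array, and the other 5 on 0 arrays. All 7 had differences below 0, from -0.41 (CheA7a) to -0.02 (CheB93b), with a median of -0.09. Below 0 lay 53.4% of all probe sets, and 50.2% of those that, like these 7, were not above background on all 6 arrays. None passed limma's adjusted p 0.05 without the filter, and none reached unadjusted p 0.05. The shared sign was not stable: 4 of the 7 lay below 0 with group-housed replicate 1 left out, and also 4 with group-housed replicate 3 left out.

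**Figure D3:**
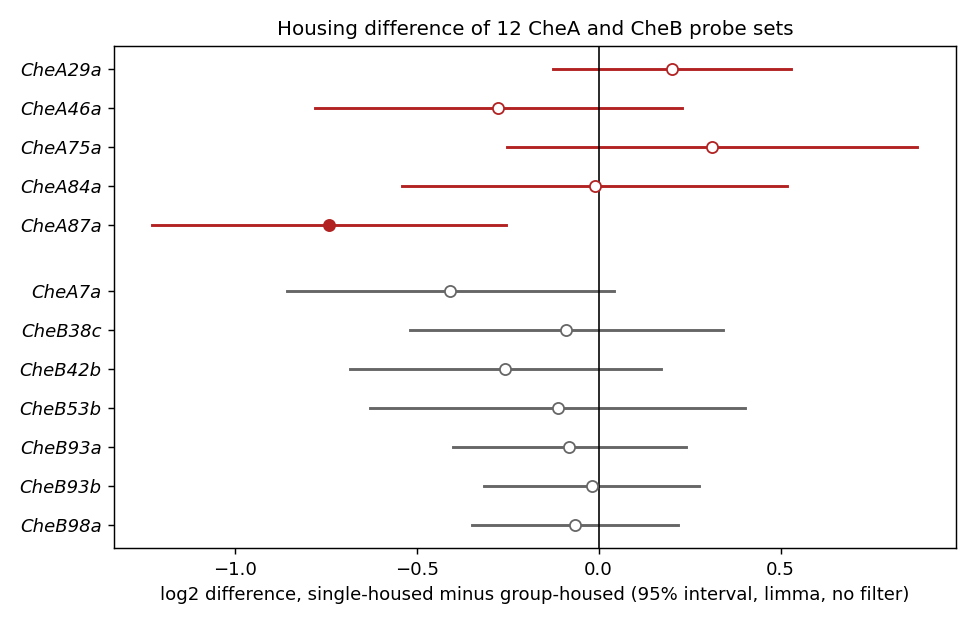
Log2 differences, single-housed minus group-housed, of the 5 measured members (red, upper block) and the 7 other CheA and CheB probe sets (grey, lower block), with 95% limma intervals from the fit without a filter on low values. Filled points mark probe sets above background on all 6 arrays, which is CheA87a; its interval lies below 0, and those of the other 11 include 0.

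Genes expressed in the antenna varied across the same arrays. The marker list had 3 genes with a probe set, all above background on all 6 arrays, and their summed intensity after normalization was 10176 to 10420 on single-housed arrays and 9361 to 11138 on group-housed arrays. That sum is mostly Obp19d, an abundant odorant binding protein gene, which differed by 0.02 (SE 0.060). The log2 signal of lush, the odorant binding protein gene needed to smell the male pheromone cVA, was 9.40, 9.43 and 9.94 in single-housed heads, against 10.35, 10.26 and 9.51 in group-housed heads. Orco, the co-receptor of the odorant receptors, was at 7.45, 7.51 and 8.07 in single-housed heads and at 8.22, 8.00 and 7.62 in group-housed heads. For CheA87a, lush and Orco alike, replicate 3 was the highest single-housed array and replicate 3 the lowest group-housed array. The groups overlapped for lush and Orco, with differences of -0.45 (SE 0.23) and -0.27 (SE 0.19) and limma adjusted p of 0.645 and 0.747.

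Taken relative to the mean log2 signal of the 3 antennal markers on each array, a comparison chosen after the values were seen, CheA87a differed by -0.50 and the groups did not overlap. Relative to Obp19d alone it differed by -0.76, with no overlap. Obp19d hardly varied, with SDs of 0.01 over single-housed and 0.10 over group-housed arrays. That value therefore nearly repeats the -0.74 of CheA87a itself. Obp19d was also very bright, with the same normalized log2 signal, 13.19, on single-housed replicates 1 and 2. Group-housed replicates 1 and 2 likewise shared 13.23. The part of antennal content in the CheA87a difference was not tested. The mean of the 3 markers includes Obp19d as well. Relative to lush alone the difference was -0.29 and relative to Orco alone -0.47, and in both cases the groups overlapped. Markers of the fat body gave 3 differences above 0 and 3 below. The genes fit, Obp99b and Lsp2 had differences of 1.39, 0.76 and 1.63, with limma adjusted p of 0.338, 0.178 and 0.594, and the yolk protein genes Yp1, Yp2 and Yp3 had differences of -0.58, -0.47 and -0.07, with adjusted p of 0.716, 0.803 and 0.944. For fit, Obp99b and Lsp2 all single-housed values lay above all group-housed values, while the groups overlapped for the yolk protein genes. Of all probe sets tested 14.2% did not overlap in either direction. The 6 fat body probe sets summed, after normalization, to 16362 to 17648 on single-housed arrays and to 6200 to 12955 on group-housed arrays. That sum is mostly Obp99b, Lsp2 and fit. The part of the fat body signal in the CheA87a result was not tested.

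**Figure D4:**
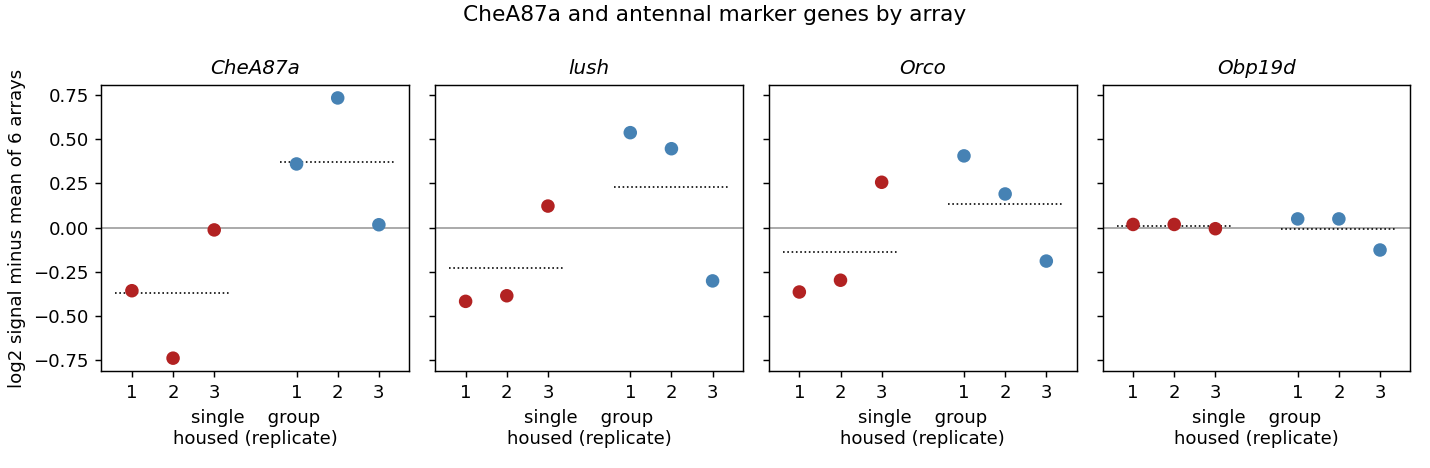
Normalized log2 signal of CheA87a and of the antennal marker genes lush, Orco and Obp19d on each array, each minus its own mean over the 6 arrays; single-housed arrays are red on the left, group-housed arrays blue on the right, and dotted lines are group means. Single-housed replicate 3 and group-housed replicate 3 lie on the inner side of their groups for CheA87a, and for lush and Orco the single-housed one of these 2 arrays lies above the group-housed one.

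Among 10731 other named probe sets tested, the ones whose profile over the 6 arrays lay closest to that of CheA87a were CG13063, OS9, CG14079, Cyp6t3 and CecB. Likeness was the root mean square difference of the log2 signals, each centred on its own mean, and it was 0.109, 0.158, 0.182, 0.206 and 0.212 for these genes, against a median of 0.490 over all. CG13063 and CG14079 had differences of -0.73 (SE 0.24) and -0.57 (SE 0.20). Both were dim in single-housed heads, at mean log2 signals of 5.02 and 4.50. OS9, which was described as a gene of the fly's olfactory organs, had a difference of -0.55 (SE 0.20). The groups overlapped for CG13063, OS9 and CecB. For CG14079 and Cyp6t3 all single-housed values lay below all group-housed values. Cyp6t3 encodes a cytochrome P450 and CecB the antimicrobial peptide cecropin B, and they had differences of -0.54 (SE 0.13) and -0.62 (SE 0.26). None of the 5 passed limma's threshold, and since CheA87a itself sets the profile, their differences carry no support of their own.

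In the RefSeq gene table the gene model of CheA87a overlaps that of Lip3, a lipase gene, which has a probe set of its own. The log2 signal of Lip3 was 5.00 ± 0.16 for single-housed against 4.87 ± 0.13 for group-housed arrays (SD, n = 3). The difference was 0.13 (SE 0.17, limma adjusted p 0.876). These signals were at about the background level, which ran from 4.88 to 5.26 over the arrays on that scale, so the sign says little. The nearest coding genes on either side, Elp6, Dic1, CG34309 and CG9813, had differences of 0.06, 0.02, -0.16 and -0.05, and none passed the threshold. CheA29a likewise overlaps dachs, for which there was no probe set with a single gene.

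The wider set of pheromone sensing genes gave 27 tested probe sets, with 0 past limma's adjusted p 0.05 and 2 at unadjusted p 0.05, near the 8.24% of all probe sets tested that reached it; both were higher in single-housed heads. The list held odorant and gustatory receptors, ionotropic receptors, pickpocket channels, binding proteins and the sex determination genes dsx and fru, and of its 37 probe sets 8 were above background on all arrays. The 4 genes with the smallest p were dsx at 0.39 (SE 0.11), fru at 0.36 (SE 0.15), lush and Or67d. Or67d, the receptor for cVA, was at -0.30 (SE 0.16). For dsx limma gave an unadjusted p of 0.00685 and an adjusted p of 0.441. All its single-housed values lay above all group-housed values. Of the 27, 3 did not overlap with single-housed higher and 0 with it lower. Of all probe sets tested 14.2% did not overlap in either direction. The second dsx probe set was at -0.11 but dim, above background on 4 arrays against 6 for the first, so it says little about the first. The fru probe set with the smallest p was above background on 3 arrays, and a brighter one, above it on 6, was at -0.21. The pickpocket channel genes of contact sensing were dim, with ppk23 at -0.36 (SE 0.21), ppk25 at 0.22 (SE 0.24) and ppk29 at -0.13 (SE 0.19), above background on 2, 1 and 4 of the 6 arrays in that order. Of the 27, 19 lay below 0 with a median of -0.11, where 54.6% of all probe sets tested lay below 0. The 27 are not 27 separate genes, since fru and dsx have several probe sets each. With the deposited scaling 13 lay below 0 and the median was 0.01.

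Npc2 proteins form another family of small secreted lipid-binding proteins. Of its 8 genes 5 were tested, and 0 passed limma's adjusted p 0.05 or reached unadjusted p 0.05. Npc2a, Npc2b, Npc2g and Npc2h were above background on every array, with differences of -0.09 (SE 0.087), -0.06 (SE 0.087), 0.13 (SE 0.075) and 0.24 (SE 0.11). The median of the 5 was 0.10, and leaving out single-housed replicate 1 turned it to -0.05, and group-housed replicate 1 to -0.01.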

How the data were processed

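Affymetrix arrays of 6 pools of 20 male heads were used, 3 single-housed and 3 group-housed. Values are the deposited signal intensities, 1 per probe set and array. How the authors summarised probes, corrected background and scaled arrays is not given in the sources used here. As deposited, array medians ran from 24.2 to 31.6, and the number of arrays limits the precision. Of 18952 probe sets, 183 controls were left out. The platform annotation gave 1 gene for 13647 of the other 18769, several for 402 and none for 4720; 13544 of the 13647 matched the RefSeq gene table by gene ID. No genome was used.

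Values were taken as log2(intensity + 16) and quantile normalized, and the dimmest 30% of probe sets by mean were dropped. The housing groups were set against each other in limma 3.58.1 (R 4.3.3) by lmFit and eBayes with an intensity trend, 2-sided, and p-values were adjusted by Benjamini-Hochberg over the 13138 that remained. The script was tested on simulated data. The members and lists were chosen with earlier results of these data known. All members are named; from each of the pheromone and Npc2 lists, up to 4 genes with the smallest p; and the 5 probe sets most like CheA87a. Lip3, the neighbouring genes, the pickpocket channels and the other CheA and CheB genes were chosen later. Same-numbered arrays of the 2 groups had correlated deviations of 0.032, 0.11 and 0.33, against -0.25 to 0.16 for differently numbered arrays. The numbers were not taken as pairs in the main fit, and these values do not settle whether they are pairs. Alternatives were other scalings, pseudocounts, filters and priors, a replicate block, and each array left out.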

Additional observations from a re-analysis of the deposited data

How the results depend on the processing

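The count of CheA members past limma's adjusted p 0.05 was 0 in all 14 alternatives, and CheA87a was the 1 member above background on all 6 arrays in each of the 7 alternatives for that count. Among members that passed the filter, those with groups that did not overlap numbered 1 to 3 with 1 array left out. The 3 came without group-housed replicate 3, where CheA75a and CheA46a joined CheA87a, and CheA84a, under the filter, made it 4 of the 5. Fewer arrays overlap less easily, and 24.0% of all probe sets tested were apart in that setting, against 14.2% with all arrays. With no filter 23.1% of all probe sets were apart there, against 12.8% with all arrays. CheA29a, also under the filter, was apart with replicate 2 of either group left out. A pseudocount of 1 put CheA29a at 0.84, against 0.20, CheA75a at 0.99, against 0.31, CheA84a at 0.34, against -0.01, and CheA46a at -0.85, against -0.28. The count over all probe sets moved more, and the cause was not tested: 78 with the deposited scaling, 11 with median centring, 1 each with a pseudocount of 64, with a 50% filter and with no filter, 0 for eBayes without the trend (985 at unadjusted p 0.05), and 0 to 47 with 1 array left out. With the replicate block it was 32, and CheA87a had an adjusted p of 0.295. The deposited scaling put the median difference of the probe sets tested at 0.099, against -0.017 after quantile normalization, and CheA87a at -0.59; with median centring CheA87a was at -0.68. Dim signal limits the other 4 members.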
